A study of Mus musculus with 32 samples.

Results

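Hlf, Mecom, Meis1, Mllt3, Mycn, Runx1, Erg, Prdm16 and Hmga2 encode nuclear regulators of blood stem and progenitor cells that lie outside the Hox clusters. Each symbol matched 1 row, so the set was 9 of the 55487 genes in the deposited table, and each gene was read in all 32 libraries. Bone marrow was taken from Mx1-Cre+ Cxadr fl/fl mice, called Cxadr-ko, and from Mx1-Cre- Cxadr fl/fl mice, called control, with 4 mice of each genotype. Cxadr encodes the coxsackievirus and adenovirus receptor CAR, a cell adhesion protein of the immunoglobulin superfamily. From each mouse 4 populations were sorted, namely LSK, CMP, GMP and MEP, and each gave 1 RNA-seq library. All mice carried the floxed Cxadr alleles, and only the Cxadr-ko mice carried Cre, so that an effect of Cre itself and of the deletion cannot be told apart. Mx1-Cre is driven by an interferon-inducible promoter that is active in blood and other tissues. What induced it, and the age and sex of the mice, are not stated in the labels.

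LSK cells hold the stem cells and multipotent progenitors of the marrow. CMP, GMP and MEP are the gates of common myeloid, granulocyte-monocyte and megakaryocyte-erythroid progenitors. In the mouse, Runx1 and Erg are required for the emergence or upkeep of blood stem cells, Mecom and Prdm16 for their maintenance, and Hlf marks and protects them. Meis1 is a homeodomain protein that binds DNA with Hox partners. Mycn acts redundantly with Myc in stem cells. Mllt3 (AF9) reads acylated histones and recruits the histone methyltransferase Dot1l and elongation factors, and Hmga2 is an AT-hook chromatin protein known for its role in fetal stem cells. Mllt3 and Hmga2 are thus chromatin proteins rather than sequence-specific transcription factors.

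All 9 genes lie on the minus strand of the mm10 assembly. Hlf spans chr11:90336536-90390895 and Meis1 chr11:18879817-19018985. Mecom spans chr3:29951296-30548008, Mllt3 chr4:87769925-88033364 and Prdm16 chr4:154316125-154636873. Mycn spans chr12:12936093-12941914 and Hmga2 chr10:120361275-120476469. Runx1 (chr16:92601466-92826149) and Erg (chr16:95359169-95586593) share a chromosome with Cxadr (chr16:78301489-78359774), whose alleles were floxed. The windows before annotated starts are shown for 3 genes that carry the results: Hlf and Meis1, which were highest in LSK cells, and Runx1, which was lowest there and has a distal and a proximal start. Sequences are from RefSeq on GRCm38.p6, the 250 bases before each start, 5′ to 3′ on the gene's strand. Capitals mark the letters of the motifs searched on both strands: CCGGAA for the ETS family, TGTGGT for the RUNX family, CACGTG for the MYC family, AGATAA for the GATA family, TGACAG for the MEIS family, CCAAT for the CCAAT box, TATAAA for the TATA box and CAGCTG for another E-box.
Hlf, chr11:90390918-90391167: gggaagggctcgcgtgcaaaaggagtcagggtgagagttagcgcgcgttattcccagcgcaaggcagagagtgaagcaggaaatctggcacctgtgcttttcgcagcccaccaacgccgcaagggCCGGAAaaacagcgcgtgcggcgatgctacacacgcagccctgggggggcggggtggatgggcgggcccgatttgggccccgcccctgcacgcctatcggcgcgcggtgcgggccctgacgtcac
Meis1, chr11:19018970-19019219: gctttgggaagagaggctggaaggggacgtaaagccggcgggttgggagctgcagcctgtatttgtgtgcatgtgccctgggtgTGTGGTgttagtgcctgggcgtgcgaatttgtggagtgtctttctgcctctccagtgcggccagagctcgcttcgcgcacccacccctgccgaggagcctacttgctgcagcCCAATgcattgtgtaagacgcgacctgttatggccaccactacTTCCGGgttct
Runx1 distal start, chr16:92826075-92826324: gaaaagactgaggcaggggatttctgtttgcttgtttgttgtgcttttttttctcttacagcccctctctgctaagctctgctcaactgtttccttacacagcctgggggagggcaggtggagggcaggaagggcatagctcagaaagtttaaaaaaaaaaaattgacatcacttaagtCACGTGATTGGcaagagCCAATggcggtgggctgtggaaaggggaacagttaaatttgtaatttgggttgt
Runx1 proximal start, chr16:92697330-92697579: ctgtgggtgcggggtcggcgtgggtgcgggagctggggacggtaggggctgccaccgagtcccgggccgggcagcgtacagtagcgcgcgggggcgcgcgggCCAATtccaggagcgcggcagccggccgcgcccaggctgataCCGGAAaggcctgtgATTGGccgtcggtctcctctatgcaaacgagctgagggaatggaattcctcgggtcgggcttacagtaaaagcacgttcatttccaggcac

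The Hlf window held 1 ETS core 125 bases before the start and none of the other letters searched. The Meis1 window held a RUNX core, a CCAAT box and, close to the start, an ETS core. The distal Runx1 window held CACGTG directly followed by a CCAAT box on the opposite strand and by a further CCAAT box, whereas the proximal window held 1 ETS core between a pair of CCAAT boxes. The 2 Runx1 windows also differed in base composition, with 45.6% G or C in the distal and 67.6% in the proximal window, against a median of 52.4% over 32851 windows. Counts per gene do not separate reads from the distal and proximal starts. Of 14 windows for the 9 genes, 9 held a CCAAT box, which 33.8% of all windows held. The ETS core was in 3 of 14 windows and in 12.03% of all windows, and the MEIS letters in 3 of 14 and in 15.9%. The RUNX core was in 1 window (14.0% of all), as were CACGTG (6.02%), the GATA letters (9.99%), the TATA letters (12.4%) and CAGCTG (13.0%). These are matches of letters and show no binding.

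Expression is given as normalized counts, which are reads per gene divided by 1 size factor per library. The libraries held 8313300 to 13641248 reads. The markers set the LSK and the GMP libraries apart. The granulocyte-monocyte, erythroid and megakaryocyte genes named here did not tell CMP from MEP libraries. Ly6a, which encodes the Sca-1 antigen of the LSK gate, averaged 728 normalized counts in LSK cells, 46.3 in CMP cells, 43.1 in GMP cells and 53.3 in MEP cells, and the granule enzyme gene Elane averaged 388, 3212, 56705 and 3291 in these gates. The granulocyte gene Mpo averaged 48429 in MEP cells and 55942 in CMP cells. Of the erythroid factors, Gata1 averaged 259 in MEP cells, 189 in CMP cells, 167 in GMP cells and 65.7 in LSK cells, and Klf1 averaged 114, 57.4, 118 and 17.3 in the same order. Later erythroid genes were low in MEP cells, with a mean of 14.9 for Epor and 1.03 for Slc4a1. Epor and Hbb-bt had their highest means in LSK cells, 21.0 and 74.9. Hbb-bt averaged 26.0 in CMP cells, 12.2 in GMP cells and 28.9 in MEP cells. Of the megakaryocyte genes, Itga2b averaged 416 in MEP cells, 319 in CMP cells, 293 in GMP cells and 264 in LSK cells. Gp9 and Vwf were highest in LSK cells, with 84.7 and 125 there and 54.8 and 12.4 in MEP cells. Gata1 was higher in MEP than in GMP cells (limma adjusted p = 0.0248), but neither Gata1 nor Klf1 was called between CMP and MEP cells (limma adjusted p = 0.413 and 0.0938), and the libraries are called MEP by their gate. Other marker genes were called between CMP and MEP cells. Higher in MEP were 2 of 4 tested genes of macrophages and dendritic cells and 1 of 2 of T and NK cells. Of the 9 stem cell surface genes 1 was higher in CMP. Cd34, the most abundant of the 9, averaged 11249 in LSK cells, 10004 in CMP cells, 6197 in GMP cells and 8638 in MEP cells. Of all genes tested 0.206% were higher in MEP and 0.168% in CMP cells. Cxadr RNA was low in all libraries, between 12.3 and 54.5 normalized counts in LSK cells and from 0 to 27.7 in MEP cells. It did not separate Cxadr-ko from control in any gate, so these counts do not check the genotype labels (mean of the gates, log2 difference -0.40 ± 0.25 SE, limma adjusted p = 0.699). Immunoglobulin genes took 5.24% of reads in LSK cells of Cxadr-ko mouse 1 and 12.4% in LSK cells of control mouse 1, and at most 1.42% in the other libraries.

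Of the 9 genes, 8 were more abundant in LSK cells than in CMP, GMP and MEP cells, and Runx1 was less abundant. The gates were compared within mice by limma on log2 of the normalized count plus 1, with the mouse as a block, 8 mice per gate and the genotypes pooled. A gene was called where its p, adjusted over all genes tested by the Benjamini-Hochberg method, was under 0.05. Between LSK and CMP cells, 8 of 9 were higher in LSK, against 16.3% of the 18475 genes tested, and 1 was lower, against 14.9%. Between LSK and GMP cells, 8 were higher, against 27.4%, and 1 was lower, against 22.1%. Between LSK and MEP cells, 8 were higher, against 20.3%, and 1 was lower, against 16.2%. The median log2 difference of the 9 genes was 1.37 for LSK minus CMP, 2.38 for LSK minus GMP and 1.30 for LSK minus MEP. Over all genes tested these medians were 0.03, 0.07 and 0.06. The 9 genes were chosen with earlier results of these data known, so these shares describe the set and do not test it. In sorted bulk cells, fewer cells that express a gene and less RNA per cell cannot be told apart. Summed markers of mature neutrophils also differed between gates, from 235.1 to 2988 in LSK cells, 1213 to 107161 in CMP cells, 1465 to 56407 in GMP cells and 382.0 to 112751 in MEP libraries, with all 6 markers detected in every library. Their part in the gate differences was not tested.

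**Figure D1:**
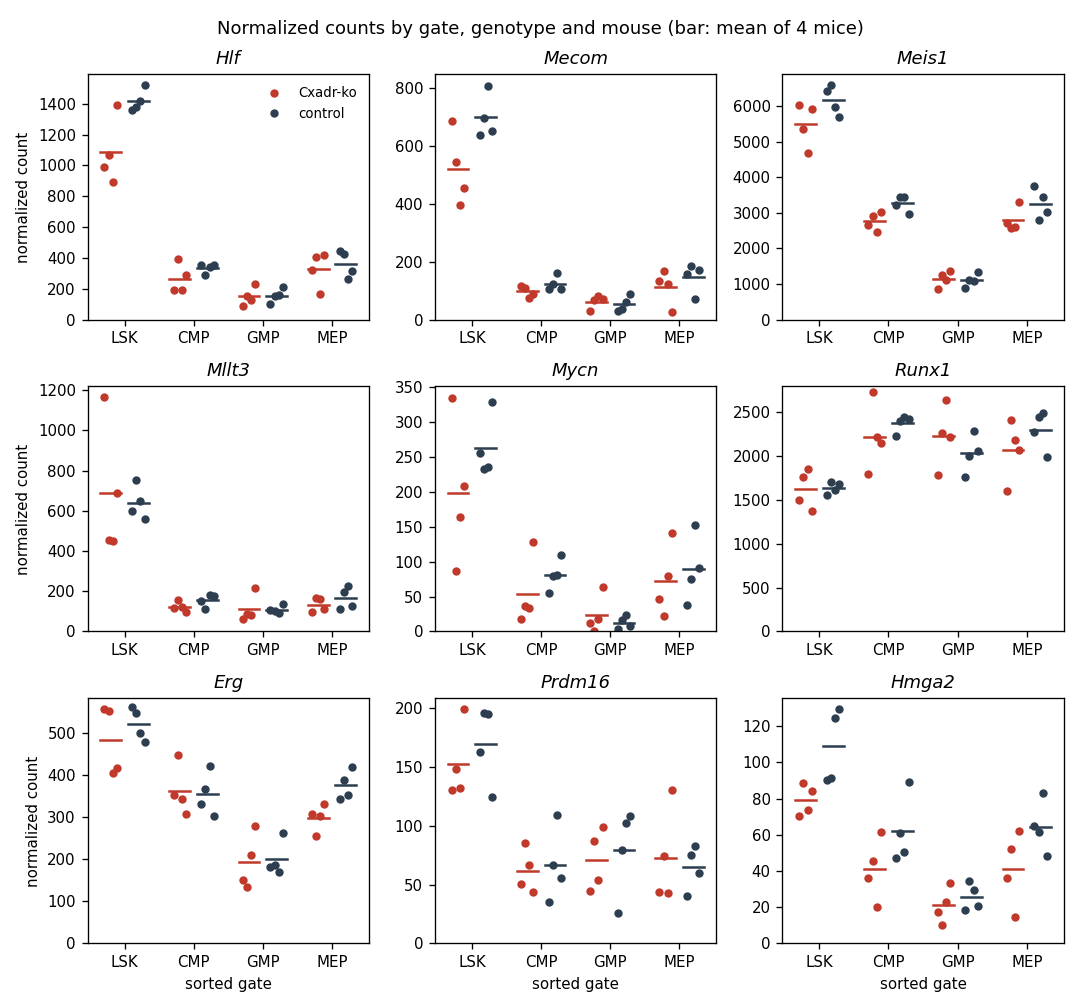
Normalized counts (vertical axes, linear from 0) of the 9 genes by sorted gate (horizontal axes), with 1 point per mouse and a bar for the mean of 4 mice, Cxadr-ko in red and control in dark blue. For Hlf, Mecom, Meis1 and Mllt3 the 8 LSK points lie above all points of the other gates, and for Runx1 the LSK mean of 1629 is the lowest of the gates.

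Hlf, a PAR bZIP factor, had a lowest, median and highest normalized count of 894.7, 1367 and 1518 in LSK cells. Its values were 189.6, 315.9 and 391.8 in CMP cells, 85.5, 153.4 and 232.0 in GMP cells, and 162.4, 363.3 and 443.9 in MEP cells. The LSK values overlapped with no other gate, and the CMP and MEP values covered the same range. Hlf was 4.22-fold higher in LSK than in CMP cells (log2 difference 2.08 ± 0.15 SE, limma adjusted p = 6.0e-11), and the log2 difference was 3.08 ± 0.15 against GMP and 1.90 ± 0.15 against MEP cells.

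Mecom, a zinc finger factor whose locus makes Mds1-Evi1 and Evi1 forms, ranged from 393.3 through a median of 643.4 to 806.3 in LSK cells. In CMP cells it ranged from 75.8 to 160.3, in GMP cells from 29.9 to 89.4 and in MEP cells from 24.7 to 186.0. The LSK range stood apart from each of these. Mecom was 5.46-fold higher in LSK than in CMP cells (log2 difference 2.45 ± 0.29 SE, limma adjusted p = 2.5e-07) and 10.8-fold higher than in GMP cells (3.43 ± 0.29). Prdm16, the paralogue of Mecom, was less abundant, with 124.1 to 199.3 in LSK cells, 35.2 to 108.8 in CMP cells, 26.0 to 107.9 in GMP cells and 40.0 to 130.1 in MEP cells. It was 2.59-fold higher in LSK than in CMP cells (log2 difference 1.37 ± 0.20 SE, limma adjusted p = 4.6e-06).

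Meis1 was the most abundant of the 9 genes per length of exon in LSK, CMP and MEP cells. In LSK cells it had a lowest, median and highest normalized count of 4681, 5935 and 6599, against 2460, 3000 and 3447 in CMP cells. GMP cells had 851.7, 1108 and 1368, and MEP cells 2570, 2897 and 3746. The GMP values lay below all others, the LSK values above all others, and the CMP and MEP values between them overlapped. The log2 difference was 0.95 ± 0.08 SE for LSK minus CMP (limma adjusted p = 2.0e-09) and 2.38 ± 0.08 for LSK minus GMP (limma adjusted p = 4.1e-18). Gate accounted for 95.4% of the variance of Meis1 on the log2 scale, the highest share of the 9 genes, while the shares of Prdm16 and Runx1 were 54.9% and 55.3%.

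Mllt3 ranged from 451.6 through a median of 623.7 to 1163 in LSK cells, from 99.3 to 179.8 in CMP, from 61.8 to 216.2 in GMP and from 95.2 to 224.8 in MEP cells. The LSK value of 1163 came from Cxadr-ko mouse 1. Mllt3 was 4.64-fold higher in LSK than in CMP cells (log2 difference 2.21 ± 0.22 SE, limma adjusted p = 1.5e-08). Hmga2 was the least abundant per length of exon in LSK cells, with 70.1 to 129.4 normalized counts there, 20.1 to 89.4 in CMP cells, 10.4 to 34.2 in GMP cells and 14.6 to 83.0 in MEP cells. Its log2 difference was 0.94 ± 0.22 SE for LSK minus CMP (limma adjusted p = 0.00189) and 2.01 ± 0.22 for LSK minus GMP.

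Mycn showed the widest contrast between LSK and GMP cells of the 9 genes. It had 86.4, 233.9 and 333.9 normalized counts (lowest, median and highest) in LSK cells, against 1.16, 14.5 and 63.3 in GMP cells. CMP cells had 17.5, 66.9 and 128.3, and MEP cells 21.6, 77.2 and 151.9. The LSK and GMP ranges did not overlap, whereas the LSK range overlapped with those of CMP and MEP cells. The log2 difference was 4.11 ± 0.36 SE for LSK minus GMP (limma adjusted p = 2.8e-10) and 1.90 ± 0.36 for LSK minus CMP (limma adjusted p = 1.6e-04). In 8 of 8 mice Mycn was higher in LSK than in each other gate.

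Erg, an ETS factor, had a flatter profile, with 404.8 to 562.2 normalized counts in LSK, 304.4 to 448.4 in CMP cells, 133.4 to 278.6 in GMP cells and 254.8 to 420.9 in MEP cells. Its log2 difference was 0.48 ± 0.13 SE for LSK minus CMP (limma adjusted p = 0.00601) and 1.38 ± 0.13 for LSK minus GMP. The call against CMP was lost without mouse 1 of both genotypes (0.41, adjusted p = 0.083) and in the Cxadr-ko mice alone (0.41, adjusted p = 0.258).

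Runx1, the DNA-binding partner of Cbfb, ran the other way. Its lowest, median and highest normalized counts were 1368, 1647 and 1848 in LSK cells, against 1793, 2313 and 2727 in CMP cells. GMP cells had 1765, 2139 and 2636, and MEP cells 1597, 2227 and 2496. The ranges overlapped at their edges, but within each of the 8 mice Runx1 was lower in LSK than in the other gates. The log2 difference was -0.49 ± 0.06 SE for LSK minus CMP (limma adjusted p = 6.2e-07), -0.38 ± 0.06 for LSK minus GMP (limma adjusted p = 1.1e-05) and -0.41 ± 0.06 for LSK minus MEP (limma adjusted p = 7.0e-06). Runx1 stayed called and lower in LSK under every alternative run, among them TMM scaling, edgeR and DESeq2.

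Among the myeloid gates the genes fell into 2 sets. Hlf, Mecom, Meis1, Mycn, Erg and Hmga2 were higher in CMP than in GMP cells, 6 of 9 genes against 11.5% of genes tested, and none was higher in GMP, against 9.6%. The same 6 were higher in MEP than in GMP cells, against 11.7% of genes tested, and none was higher in GMP, against 10.3%. The median log2 difference of the 9 genes was 0.98 for CMP minus GMP and 1.03 for MEP minus GMP, where all genes had medians of 0.03 and 0.00. Mycn had the largest differences, 2.20 ± 0.36 SE for CMP minus GMP and 2.46 ± 0.36 for MEP minus GMP, followed by Meis1 with 1.43 ± 0.08 in both. Mllt3 (0.39 ± 0.22 SE, limma adjusted p = 0.236), Prdm16 (-0.17 ± 0.20, adjusted p = 0.602) and Runx1 (0.11 ± 0.06, adjusted p = 0.213) were not called for CMP minus GMP. Some of these calls rested on single mice. Mecom (0.98 ± 0.29 for CMP minus GMP, limma adjusted p = 0.0153) was no longer called without Cxadr-ko mouse 1 (0.85, adjusted p = 0.0645), control mouse 1 (0.87, adjusted p = 0.0567) or control mouse 2 (0.89, adjusted p = 0.0523). The same 3 mice decided its call for MEP minus GMP. Mllt3 was called without Cxadr-ko mouse 4, at 0.60 for CMP minus GMP (adjusted p = 0.038) and 0.66 for MEP minus GMP (adjusted p = 0.023).

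No gene of the set was called between CMP and MEP cells, where 0.168% of genes tested were higher in CMP and 0.206% higher in MEP. None of the 9 had an unadjusted p under 0.05 in limma, and none was called by edgeR or DESeq2. The log2 differences for CMP minus MEP lay between -0.25 ± 0.36 SE for Mycn and 0.09 ± 0.13 for Erg, and their 95% intervals were -0.99 to 0.48 and -0.18 to 0.36. The level of the 9 genes thus gave no order of the CMP and MEP gates.

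**Figure D2:**
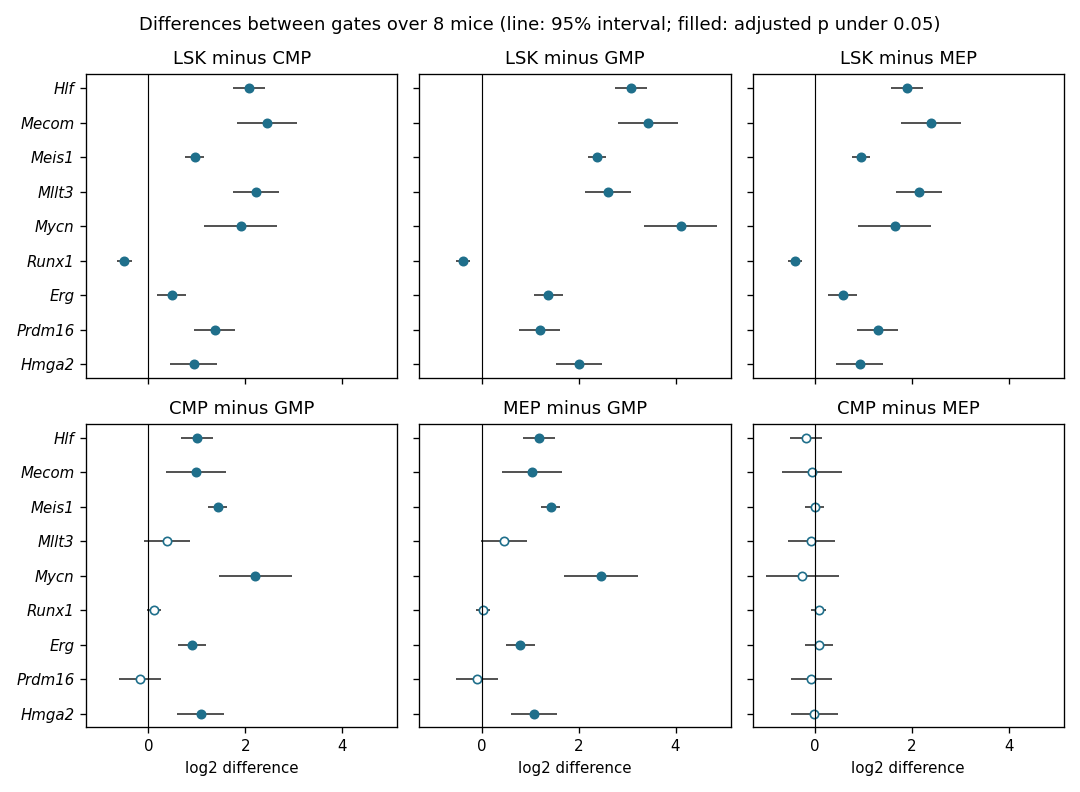
Log2 differences between gates (horizontal axes) for the 9 genes (vertical axes), with the limma estimate over 8 mice, a line for its unadjusted 95% interval and a filled point for an adjusted p under 0.05. Of the 9 genes 8 are right of 0 in each LSK panel and Runx1 is left of it, while no point is filled for CMP minus MEP.

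Levels were compared between genes per kilobase of exon. In LSK cells Meis1 had 553 normalized counts per kilobase, followed by Hlf with 187, Erg with 145, Runx1 with 135, Mycn with 70.0, Mllt3 with 55.4, Mecom with 48.9, Prdm16 with 17.2 and Hmga2 with 13.9. In GMP cells Runx1 came first with 177 per kilobase, ahead of Meis1 with 107 and Erg with 56.9. Hlf had 22.8 per kilobase in GMP cells, and Hmga2 had 3.46.

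The genes varied together between gates and less so within them. Over the 32 libraries Pearson's r of the log2 values ran from 0.51 to 0.92 for the 28 pairs without Runx1, with a median of 0.79, and from -0.58 to -0.29 for the 8 pairs with Runx1. These libraries fall into gates, come from 8 mice and share their scaling, so r here describes the gate profile. After the mean of each gate and genotype group was subtracted, r ran from -0.23 for Mecom and Mycn to 0.62 for Hlf and Meis1, with a median of 0.26. Of the 36 pairs 4 stayed above 0.5, of which 3 included Hlf, with Meis1, Hmga2 and Prdm16 as partners. With the group means removed, r between Runx1 and the other genes lay between 0.08 and 0.40.

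**Figure D3:**
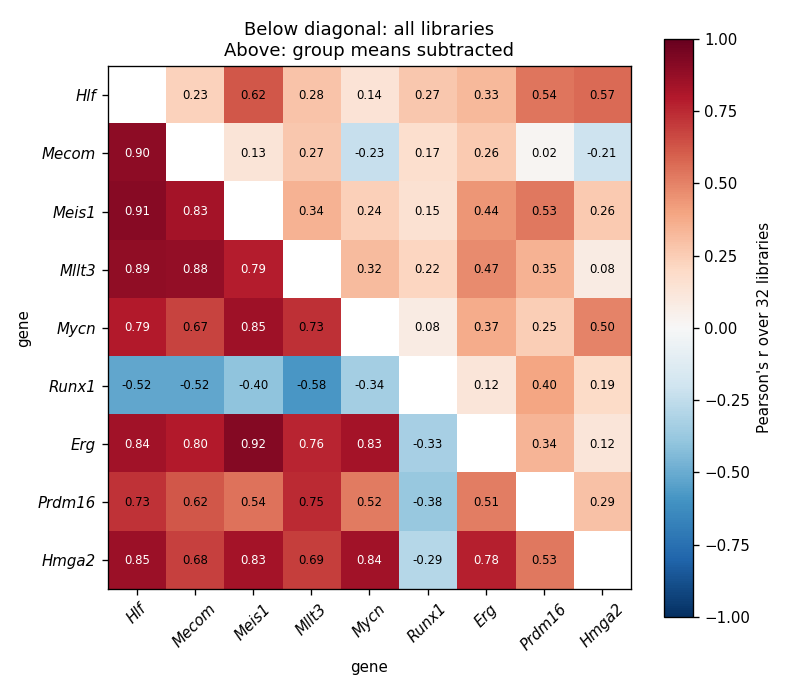
Pearson's r between the 9 genes over 32 libraries (colour and printed value, rows and columns are genes), below the diagonal for all libraries and above it after each gate and genotype mean was subtracted. The Runx1 row and column are negative below the diagonal, and the highest value above it is 0.62 for Hlf and Meis1.

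The gene whose profile was most like that of Hlf was its neighbour Stxbp4, which encodes a syntaxin-binding protein. Stxbp4 lies at chr11:90476492-90638084, 85596 bases from Hlf and on the same strand. Its lowest, median and highest normalized counts were 2423, 2944 and 3392 in LSK cells, 523.2, 720.6 and 895.6 in CMP cells, 171.6, 267.3 and 497.2 in GMP cells, and 594.6, 840.6 and 1041 in MEP cells. The LSK values again stood apart from the other gates and the GMP values were the lowest. Over the 32 libraries r with Hlf was 0.97, and it was 0.73 after the group means were subtracted. Mmd, the neighbour of Hlf on the other side, had an r of -0.01. A similar case was Hacd4, a fatty acid elongation enzyme gene, which was among the 3 genes most like Mllt3 (r = 0.93) and lies 362779 bases from it at chr4:88396144-88438928. Hacd4 averaged 530 ± 119 normalized counts in LSK, 103 ± 37.3 in CMP cells, 66.1 ± 24.7 in GMP cells and 100.03 ± 22.5 in MEP cells (SD, n = 8). Focad, the gene next to Mllt3 on that side, which overlaps the end of Hacd4 on the other strand, had an r of 0.33 with Mllt3.

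Such likeness was not general among the neighbours, which were examined after these values were seen. Of the 18 nearest tested protein-coding genes on either side of the 9 genes, 1 had r above 0.9, namely Stxbp4, and their median r was 0.23. Over 12723 pairs of adjacent genes the median was 0.06 and 0.354% were above 0.9. Etaa1 and Spred2, the neighbours of Meis1, had r of -0.08 and -0.09 with it, and Rcan1 and Setd4, the neighbours of Runx1, had 0.16 and -0.25.

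**Figure D4:**
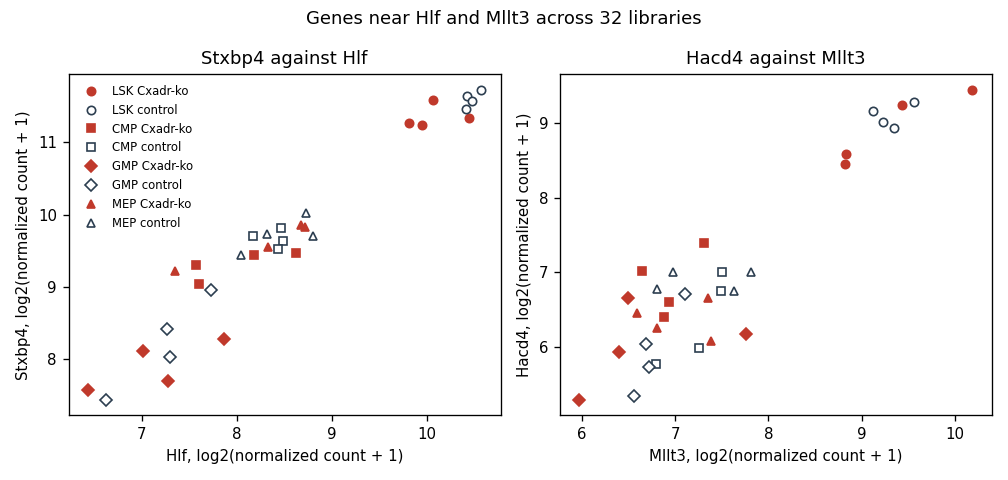
Stxbp4 against Hlf (left) and Hacd4 against Mllt3 (right), both axes in log2 of the normalized count plus 1, with 1 point per library, shape for the gate, filled red for Cxadr-ko and open blue for control. The LSK libraries lie apart at the upper right in both panels, and r over all 32 libraries is 0.97 for Stxbp4 and Hlf and 0.93 for Hacd4 and Mllt3.

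The other genes of most similar profile mostly had their highest mean in LSK cells as well. Meis1 was most like Gcnt2 (r = 0.98), Car2 (0.98) and Ctla2a (0.98), which encode a glycosyltransferase, carbonic anhydrase 2 and a cysteine protease inhibitor. Car2 averaged 10216 normalized counts in LSK, 2664 in CMP cells, 595 in GMP cells and 3471 in MEP cells. Mecom and Mllt3 shared Csad, an enzyme of taurine synthesis (r = 0.91 and 0.94), and Mycn and Erg shared Eya2, a transcriptional coactivator and phosphatase (0.89 and 0.91). Plscr2 led for Erg (0.92), Kcnn4 for Mycn (0.90), Tmem98 for Hmga2 (0.90), Cdk11b for Prdm16 (0.81), Xaf1 for Mecom (0.91) and Lhcgr for Mllt3 (0.95). Runx1 was most like Cxcr2, the chemokine receptor of neutrophils (0.81), which averaged 37.8 in LSK cells and 257 in CMP cells. After the group means were subtracted, the most similar gene was Ccrl2 for Hlf (0.81) and Cd55 for Meis1 (0.83).

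Transcripts that overlap these genes need care, since whether the counting used strand is not stated in the labels or notes. Gm16140, antisense to Meis1, averaged 635 ± 126 normalized counts in LSK, 336 ± 59.3 in CMP cells, 149 ± 52.8 in GMP cells and 364 ± 71.2 in MEP cells (SD, n = 8), and held 11.4% as many reads as Meis1. For Hmga2 the antisense gene 1700006J14Rik held 150% as many reads as Hmga2 itself and had another profile, with 41.8 ± 32.2 in LSK cells, 91.7 ± 59.7 in CMP cells, 89.2 ± 40.3 in GMP cells and 130 ± 62.1 in MEP cells. Whether reads of the antisense gene entered the counts of Hmga2 was not tested, so the counts of Hmga2 are uncertain to an unknown degree. Gm38197, on the sense strand within Mecom, held 20.2% as many reads as Mecom.

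Other regulators that act with these genes were taken from lists chosen with earlier results of these data known. The shares of these lists are therefore descriptive. Of 5 genes of the heptad, the group of factors that bind stem cell enhancers together with Runx1 and Erg, 4 were higher in LSK than in GMP cells and none lower, with a median log2 difference of 0.34. Of all genes tested 27.4% were higher and 22.1% lower, with a median of 0.07. Lmo2, a bridging protein, averaged 1800 in LSK cells and 893 in GMP cells (log2 difference 1.03 ± 0.07 SE, limma adjusted p = 7.6e-12). Fli1, the ETS paralogue of Erg, averaged 1986 in LSK cells and 1561 in GMP cells (0.34 ± 0.07 SE), and Lyl1, a bHLH factor, 1407 and 1235 (0.19 ± 0.08 SE). Gata2 averaged 427 in LSK cells and 597 in MEP cells and was lower in LSK (-0.42 ± 0.16 SE, limma adjusted p = 0.0368). Against CMP cells 3 of the 5 were higher in LSK, where 16.3% of all genes were. Against MEP cells 2 were higher and Gata2 was lower, where 20.3% of all genes were higher and 16.2% lower.

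Of 11 paralogues tested, 3 were higher and 2 lower in LSK than in GMP cells (median log2 difference 0.33, all genes 0.07). These shares were near the 27.4% and 22.1% of all genes. Of the 3, Meis2 and Meis3 passed the filter on low values only through LSK cells and had to differ, which leaves Runx2. Myc averaged 4587 normalized counts in LSK, 6001 in CMP cells, 5310 in GMP cells and 6595 in MEP cells, and was lower in LSK than in each, with log2 differences of -0.38 ± 0.06 SE, -0.20 ± 0.06 and -0.52 ± 0.06, whereas Mycn was higher. Hmga1 was also lower in LSK, with 549 there, 917 in CMP cells, 1093 in GMP cells and 789 in MEP cells (log2 difference -0.99 ± 0.07 SE for LSK minus GMP, limma adjusted p = 1.4e-11), whereas Hmga2 was higher. Runx2 averaged 902 in LSK cells and 465 in GMP cells and was higher in LSK (0.98 ± 0.12 SE), opposite to Runx1. Runx3 averaged 324 in LSK cells and 284 in GMP cells and was not called. Meis2 and Meis3, chosen after their values were seen, averaged 17.6 and 28.5 in LSK cells and at most 0.725 and 2.66 in the other gates.

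Of 11 cofactors, 3 were higher and 1 lower in LSK than in GMP cells, no more than among all genes (27.4% and 22.1%), with a median log2 difference of 0.17 and of 0.07 over all genes. Cbfb, the partner of Runx1, averaged 589 in LSK cells, 572 in CMP cells, 527 in GMP cells and 622 in MEP cells and was not called between LSK and any other gate. The corepressors Ctbp1 and Ctbp2, which bind Mecom and Prdm16, were not called either.

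The Lin28 pathway, which controls Hmga2 through let-7 in fetal cells, was low. Lin28a averaged at most 6.39 normalized counts in any gate, and of 6 genes 3 passed the filter on low values. Arid3a was lower in LSK (41.2) than in GMP cells (115; log2 difference -1.54 ± 0.26 SE, limma adjusted p = 1.5e-05), and Igf2bp2 averaged 49.1 and 39.6 in these gates. Of 9 tested further stem cell regulators, 7 were higher and Gfi1 was lower in LSK than in GMP cells, where 27.4% of all genes were higher and 22.1% lower. Their median log2 difference was 0.62, against 0.07 over all genes. Etv6, an ETS repressor, averaged 2496 in LSK cells and 1629 in GMP cells, and Gfi1b, a zinc finger repressor, 718 and 139. Hhex differed less, with 734 in LSK cells and 562 in GMP cells. Ikzf2 had its lowest mean in LSK cells, with 1062 there, 1076 in CMP cells, 1125 in GMP cells and 1275 in MEP cells. Nkx2-3, chosen after its values were seen, averaged 346 ± 74.8 in LSK cells, 13.9 ± 7.34 in CMP cells, 0.297 ± 0.553 in GMP cells and 17.1 ± 11.8 in MEP cells (SD, n = 8). No gene of these lists was called between Cxadr-ko and control mice.

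No gene of the set was called between Cxadr-ko and control mice in any gate. Within LSK cells, 0 of 9 were called by limma, against 0.0433% of 16166 genes tested. In CMP cells 0 of 9 were called against 0.0254%, in GMP cells 0 of 9 against 0.0192% and in MEP cells 0 of 9 against 0.0253%. For the mean of the gates of each mouse 0 of 9 were called against 0.0217%, and for the variation of the genotype difference between gates 0 of 9 against 0%. At an unadjusted p under 0.05, 3 of 9 passed in LSK cells, 1 each in CMP and MEP cells and for the mean of the gates, and 0 in GMP cells and between gates. The corresponding shares of all genes were 8.58% in LSK, 7.27% in CMP, 5.66% in GMP, 5.93% in MEP cells, 7.93% for the mean and 5.86% between gates. Neither edgeR nor DESeq2 called any of the 9 in these comparisons. For the variation between gates, edgeR called 0 and DESeq2 16 of all genes.

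The genes that came nearest in LSK cells were Hlf, Mecom and Hmga2. Hlf had 990.3, 1068, 894.7 and 1393 normalized counts in LSK cells of Cxadr-ko mice 1 to 4, against 1360, 1375, 1417 and 1518 in control mice 1 to 4. Of the 4 Cxadr-ko values 3 lay below every control value, and mouse 4 lay within the control range. The log2 difference was -0.40 ± 0.12 SE (95% interval -0.66 to -0.14, limma unadjusted p = 0.0064, adjusted p = 0.462). Mecom had 684.5, 542.6, 393.3 and 454.1 in Cxadr-ko mice, against 636.2, 696.6, 806.3 and 650.6 in control mice. Here too 3 of 4 lay below every control value, and Cxadr-ko mouse 1 lay inside (log2 difference -0.45 ± 0.16 SE, 95% interval -0.80 to -0.11, adjusted p = 0.516).

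Hmga2 had 70.1, 88.6, 73.7 and 84.2 normalized counts in LSK cells of Cxadr-ko mice, against 90.4, 91.6, 124.6 and 129.4 in control mice. The groups did not overlap, but the highest Cxadr-ko and the lowest control value were close (log2 difference -0.44 ± 0.18 SE, 95% interval -0.84 to -0.05, limma adjusted p = 0.544). Its differences were -0.65 ± 0.35 SE in CMP, -0.35 ± 0.43 in GMP cells and -0.78 ± 0.43 in MEP cells, with overlapping values in each. The mean over the gates differed by -0.55 ± 0.22 SE (95% interval -1.04 to -0.07, limma unadjusted p = 0.0282, adjusted p = 0.610), which was the lowest p of the set for the mean.

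The other genes differed less or varied more between mice. Mycn had 333.9, 86.4, 163.6 and 208.6 normalized counts in LSK cells of Cxadr-ko mice, against 254.8, 232.5, 235.4 and 328.8 in control mice, so that the Cxadr-ko group held both the highest and the lowest value (log2 difference -0.55 ± 0.33 SE, 95% interval -1.27 to 0.17). Mllt3 had 1163, 455.1, 451.6 and 690.4 in Cxadr-ko mice, against 597.6, 755.0, 649.9 and 557.5 in control mice (log2 difference 0.00 ± 0.26 SE, 95% interval -0.57 to 0.58). Without mouse 1 of both genotypes the Mllt3 difference was -0.32 (adjusted p = 0.573). Meis1 averaged 5491 ± 611 in Cxadr-ko and 6166 ± 416 in control LSK cells (SD, n = 4; log2 difference -0.17 ± 0.08 SE), Erg 483 ± 83.3 and 522 ± 39.0 (-0.12 ± 0.12 SE), Prdm16 152 ± 32.3 and 169 ± 33.8 (-0.15 ± 0.19 SE), and Runx1 1620 ± 225 and 1639 ± 69.6 (-0.03 ± 0.09 SE).

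Outside LSK cells, Meis1 and Erg had the lowest unadjusted p. Meis1 had 2649, 2899, 2460 and 3033 normalized counts in CMP cells of Cxadr-ko mice, against 3214, 3447, 3428 and 2968 in control mice, with 3 of 4 Cxadr-ko values below all controls (log2 difference -0.24 ± 0.08 SE, limma adjusted p = 0.620). Erg had 308.4, 254.8, 304.1 and 331.5 in MEP cells of Cxadr-ko mice, against 343.0, 389.7, 354.4 and 420.9 in control mice, and the groups did not overlap (-0.33 ± 0.13 SE, 95% interval -0.63 to -0.04, limma adjusted p = 0.824). The groups did not overlap for 1 of the 9 genes in LSK cells, 0 in CMP cells, 0 in GMP cells and 1 in MEP cells. Of all genes tested they did not overlap for 5.27% in LSK cells, 4.42% in CMP cells, 3.31% in GMP cells and 3.32% in MEP cells, so 1 gene of 9 stands near the background.

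Most of these uncalled differences had the same sign. The log2 difference was below 0 for 8 of 9 genes in LSK, 8 in CMP cells, 5 in GMP cells and 8 in MEP cells, and for 9 of 9 in the mean of the gates. Of all genes tested, 8163 of 16166 were below 0 in LSK cells and 9628 of 18475 in the mean. In CMP cells 8038 of 15737 were below 0, in GMP cells 7728 of 15593 and in MEP cells 7916 of 15812. The median of the 9 genes was -0.17 in LSK cells, -0.32 in CMP cells, -0.04 in GMP cells and -0.28 in MEP cells, and -0.18 in the mean, where all genes had -0.01. Within single gates the median of all genes lay between -0.0051 in CMP and 0.0026 in GMP cells. The genes are read in the same libraries, so that their signs are not separate observations. After the group means were subtracted, r was above 0 for 34 of 36 pairs, with a median of 0.26.

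Marker lists of other cell types were read beside these differences, and none of their tested genes was called between genotypes in any gate. All 6 markers of mature neutrophils had log2 differences above 0 in LSK, CMP and GMP cells, with medians of 0.94, 1.89 and 0.91, and 3 of 6 in MEP cells. Their sum ranged from 726 to 2988 in Cxadr-ko and from 235 to 1866 in control LSK cells. In CMP cells it ranged from 10884 to 107161 in Cxadr-ko and from 1213 to 19144 in control mice. In MEP cells the range was 2822 to 26385 in Cxadr-ko and 382 to 112751 in control mice. Of the granulocyte-monocyte markers 7 of 7 tested were above 0 in LSK cells (median 0.33) and 8 of 8 in CMP cells (median 0.32). They summed to 18882 to 21980 in Cxadr-ko and 12774 to 20971 in control LSK cells, and to 68728 to 98520 in Cxadr-ko and 69644 to 89996 in control CMP cells. Of 6 markers of macrophages and dendritic cells, at least 4 were detected in each Cxadr-ko and at least 2 in each control LSK library. Their sum ranged from 9274 to 38127 in Cxadr-ko and from 4982 to 22993 in control LSK cells, and from 14422 to 27599 and from 5176 to 15555 in GMP cells. In MEP cells this sum ranged from 18637 to 54604 in Cxadr-ko and from 13561 to 24766 in control mice. Most of it was Cd74 and H2-Aa, and C1qa was at 0 in all LSK libraries. The 8 erythroid markers summed to 200.1 to 336.8 in Cxadr-ko and 153.5 to 184.1 in control LSK cells, with Slc4a1 and Car1 at 0. Of the 5 tested there, 3 had log2 differences above 0 and 2 below, with a median of 0.38. Of the 9 stem cell surface markers 7 had log2 differences below 0 in LSK cells, with a median of -0.27. Their sum, most of it Cd34, ranged from 16558 to 17788 in Cxadr-ko and from 16597 to 18752 in control LSK cells. Of the B cell markers 5 of 5 tested were above 0 in CMP cells (median 2.15) and 4 of 4 in GMP cells (median 1.24). In LSK cells 2 of 4 were above 0 (median -0.08) and in MEP cells 3 of 5 (median 0.04). The part of these markers in the differences of the 9 genes was not tested.

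**Figure D5:**
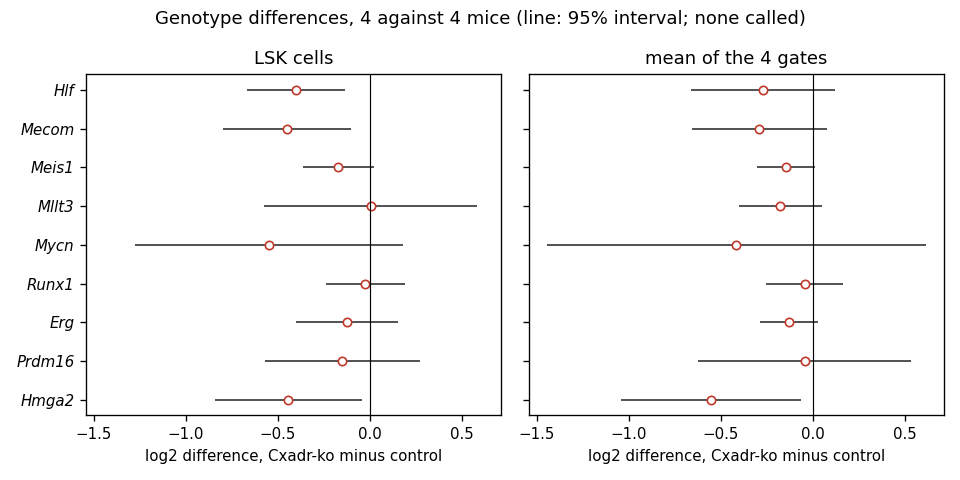
Log2 differences of Cxadr-ko minus control (horizontal axes) for the 9 genes (vertical axes) in LSK cells (left) and for the mean of the gates (right), with the limma estimate over 4 against 4 mice and a line for its unadjusted 95% interval. All points but Mllt3 in LSK cells lie left of 0, the intervals of Hlf, Mecom and Hmga2 in LSK cells end below 0, and no adjusted p is under 0.05.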

How the data were processed

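Bone marrow populations of 8 mice were profiled by RNA-seq. Per the labels' protocols, cells were sorted into TRIzol and libraries made with a NEBNext low-input kit. STAR, DESeq2, GRCm38 and mm10 stand in the submitters' processing notes. The read counter and annotation were not given in the sources used here. Deposited signal values were read counts that the authors had scaled by 1 factor per library: all 765992 values above 0 were whole multiples of a step of 0.814 to 1.28, within 0.001 reads. Those whole reads were used for depth, edgeR 4.0.16 and DESeq2 1.42.0.

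Main tests used limma 3.58.1 in R 4.3.3 with a mean trend, two-sided, on log2(value + 1), which understates changes of low genes. The low-value filter kept genes that reached 10 in 4 or more fitted libraries, which all 9 genes passed in every comparison, and p was adjusted over all genes tested. Genotypes were compared per gate and for the mean of the gates. Gates were compared within mice. The same mouse number marks different animals in Cxadr-ko and control. P-values between genotypes measure the spread between these mice. Those between gates, and for the variation of the genotype difference between gates, measure the spread left after the level of each mouse was removed. Of the animal identifiers, those of mouse 1 of each genotype stood apart. Exon lengths came from GENCODE on GRCm38. Similar genes were the 3 of highest r per gene, and listed genes were named by mean level, up to 4 per list, and markers up to 3 per list, unless said otherwise. Ly6a, Epor, Hbb-bt, Slc4a1, Car1, C1qa, Gfi1, the genes that overlap the set and its neighbours were picked after their values were seen. The genes and lists were chosen with earlier results of these data known. The scripts were tested on simulated data. Alternatives were TMM scaling, edgeR, DESeq2, no filter, a pseudocount of 10, leaving out mice, blocks and single genotypes.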

Additional observations from a re-analysis of the deposited data

Results flagged for a closer look

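Erg in GMP cells of control mouse 4 was at 262.75 normalized counts, far from the other control mice, which lay between 171.3 and 185.9. The gap to the nearest value was 0.84 of the group's range and passed Dixon's limit for 4 samples. It was the only one of 72 groups of 4 mice that passed this limit, and chance alone passes about 1 in 20 groups.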

How the results depend on the processing

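Of 799 values of single genes between gates under the alternatives, 771 kept their direction and their side of the threshold, as did 456 of 471 between genotypes, none of which became called. Without mouse 1 of both genotypes Mllt3 in LSK cells was -0.32 (log2, Cxadr-ko minus control) and Runx1 in the mean of the gates 0.012, and with TMM scaling Mllt3 in LSK cells was -0.00982. In the Cxadr-ko mice alone Runx1 was -0.00385 for CMP minus GMP and -0.11 for MEP minus GMP, and in the control mice alone Erg was -0.086 for CMP minus MEP. Leaving out 1 mouse at a time moved Mllt3 in LSK cells between -0.29 and 0.17, Runx1 in LSK cells between -0.093 and 0.051, and in the mean of the gates Runx1 between -0.11 and 0.044, Prdm16 between -0.28 and 0.12 and Mycn between -0.86 and 0.021. It moved Erg for CMP minus MEP between -0.0094 and 0.17, and for MEP minus GMP Runx1 between -0.0114 and 0.079 and Prdm16 between -0.20 and 0.0075. The Cxadr-ko mice alone left 3 of the 9 genes called for CMP minus GMP and 3 for MEP minus GMP, and without a call Hmga2 for LSK minus CMP and Hmga2 and Mycn for LSK minus MEP. The cause of these changes was not tested, and some of these fits hold fewer mice.

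Counts over all genes moved more, from 7 between genotypes in LSK cells, 4 in CMP cells, 3 in GMP cells, 4 in MEP cells and 4 in the mean. DESeq2 called 93 genes between genotypes in LSK, 39 in CMP cells, 12 in GMP cells and 23 in MEP cells, 77 in the mean, 16 for the variation of the genotype difference between gates and 348 for CMP minus MEP. Without mouse 1 of both genotypes 13 were called in LSK, 1 in GMP cells and 1 in MEP cells, 31 for CMP minus MEP, 2469 for CMP minus GMP and 2483 for MEP minus GMP. With no filter 1 gene was called for that variation and 43 for CMP minus MEP (15 higher in CMP and 28 in MEP), and with a pseudocount of 10, 125. The control mice alone gave 3778 for LSK minus CMP, 2443 for CMP minus GMP, 1 for CMP minus MEP and 2574 for MEP minus GMP. The Cxadr-ko mice alone gave 2468 for LSK minus CMP, 5469 for LSK minus GMP, 2915 for LSK minus MEP, 1353 for CMP minus GMP, 0 for CMP minus MEP and 1555 for MEP minus GMP. Leaving out 1 mouse gave 4 to 27 calls between genotypes in LSK, 0 to 5 in CMP cells, 0 to 2 in GMP cells and 0 to 4 in MEP cells, 0 to 3 for that variation and 36 to 60 for CMP minus MEP. Same-numbered mice are different animals, their deviations correlated above 0.1 in 4 of 16 pairs (all of mouse 1), and the number as a replicate block gave 4 calls in LSK cells. With no replicate block for the mouse, 8 genes were called for CMP minus MEP, 2 higher in CMP and 6 in MEP. Depth limits Mycn and Hmga2 in GMP cells most, with means of 18.2 and 23.4 normalized counts.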
